A study of Mus musculus with 18 samples.

Results

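SR proteins and heterogeneous nuclear ribonucleoproteins (hnRNPs) are RNA-binding proteins that help to decide which exons a messenger RNA keeps. Their genes were taken here as those whose symbol is Srsf followed by a number or starts with Hnrnp and which had a probe carrying that symbol alone; a gene with several such probes was read from the probe whose mean across all 18 arrays was highest. This gave 27 genes of the 19935 measured, 10 of them SR genes and 17 hnRNP genes. RefSeq lists 31 such genes, and Srsf7, Hnrnpa1, Hnrnpa3 and Hnrnph3 had no probe of that single symbol and were not analysed here.

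The arrays measured messenger RNA in mouse embryonic stem cells, which were grown in serum and leukemia inhibitory factor. The R1E line was mock treated, exposed to adriamycin (doxorubicin, a topoisomerase II poison) at 0.5 µM for 8 hours, or given ultraviolet light (UV) at 25 J/m2 and studied at 8 hours, with 4 arrays in each group. Cells labelled p53-/-, of 129X1 x 129S1 background, were untreated or exposed to 0.5 µM adriamycin for 8 hours, with 3 arrays in each group. The strain and p53 genotype of R1E are not stated in its labels, no UV arrays of p53-/- cells were analysed here, and nothing in the labels ties the arrays of a group to separate cultures. The p-values therefore rest on the spread between arrays, some of which may be technical.

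SR proteins carry RNA recognition motifs and a tail rich in arginine and serine. They mostly bind exonic enhancers and recruit the spliceosome, and kinases of the SRPK and CLK families phosphorylate the tail. hnRNPs coat nascent transcripts, often oppose exon inclusion, and take part in RNA export, stability and translation. Many genes of both families limit their own output through exons that send the transcript to nonsense-mediated decay, and the arrays read all such isoforms of a gene together.

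The windows before the start of 4 genes are shown because these genes had the 2 largest falls (Hnrnpr, Srsf3) and the 2 largest rises (Srsf12, Srsf5) after adriamycin in R1E cells. Each line holds the 250 bases before the RefSeq start of the gene in GRCm38.p6, all on the plus strand, with capitals marking the motifs found on either strand. The windows are chr4:136310692-136310941 for Hnrnpr, chr17:29032410-29032659 for Srsf3, chr4:33209022-33209271 for Srsf12 and chr12:80945249-80945498 for Srsf5.
Hnrnpr: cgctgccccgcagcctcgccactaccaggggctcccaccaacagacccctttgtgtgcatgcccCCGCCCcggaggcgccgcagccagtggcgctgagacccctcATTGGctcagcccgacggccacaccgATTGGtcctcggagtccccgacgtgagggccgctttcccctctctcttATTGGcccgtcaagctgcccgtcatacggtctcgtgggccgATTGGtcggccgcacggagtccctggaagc
Srsf3: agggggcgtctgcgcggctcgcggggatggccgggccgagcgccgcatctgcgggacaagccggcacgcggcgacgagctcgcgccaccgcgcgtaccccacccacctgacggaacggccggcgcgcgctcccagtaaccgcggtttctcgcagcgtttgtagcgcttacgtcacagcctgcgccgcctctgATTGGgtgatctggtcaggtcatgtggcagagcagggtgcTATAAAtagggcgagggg
Srsf12: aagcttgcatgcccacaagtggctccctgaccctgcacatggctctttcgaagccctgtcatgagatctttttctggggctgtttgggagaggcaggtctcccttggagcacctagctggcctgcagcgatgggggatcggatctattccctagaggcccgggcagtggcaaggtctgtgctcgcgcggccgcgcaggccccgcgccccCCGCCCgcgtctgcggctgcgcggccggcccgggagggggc
Srsf5: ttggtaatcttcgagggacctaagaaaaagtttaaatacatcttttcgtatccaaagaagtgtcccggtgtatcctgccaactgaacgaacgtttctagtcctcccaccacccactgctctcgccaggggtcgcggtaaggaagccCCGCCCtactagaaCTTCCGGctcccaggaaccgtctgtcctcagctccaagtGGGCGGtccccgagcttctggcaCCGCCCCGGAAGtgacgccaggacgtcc

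The Hnrnpr window held 4 CCAAT boxes, all written as ATTGG, beginning 145, 119, 71 and 30 bases before the start, and 1 GC box. Srsf3 had a CCAAT box at 58 bases and a TATAAA at 18 bases before the start. The windows of Srsf12 and Srsf5 held neither motif. Srsf12 had 1 GC box at 41 bases, and Srsf5 had 3 GC boxes and 2 ETS sites, of which the last ETS site overlaps a GC box. These 4 windows are examples and carry no test.

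Windows were found for 25 of the 27 genes, with none for Hnrnpll and Hnrnpul2. They were rich in G and C, with a median of 65.2% against 52% over all 27025 genes with a window, and held a median of 23 CpG dinucleotides against 6. The GC box GGGCGG was in 76% of the windows of SR and hnRNP genes and in 32.9% of all windows, the CCAAT box in 52% and 34.5%, the ETS site CCGGAAG in 20% and 7.05%, and TATAAA in 12% and 13%. For CACGTG the shares were 4% and 6.05%, and for TGACGTC, part of the cyclic AMP response element, 8% and 2.88%. Both strands were searched, motifs may overlap, and a match describes the letters of the window. The background held all RefSeq genes with a window, measured or not. It was not matched for expression level or for G and C content, so the shares do not single out splicing factor genes.

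Adriamycin in R1E cells was the first comparison, which asked how levels of the splicing factor genes stood after 8 hours of the drug. Of the 27 genes, 21 were lower and 3 higher than in mock cells. Hnrnpr had the largest fall, 1.94-fold, followed by Srsf3 at 1.65-fold, and Srsf12 the largest rise, 2.06-fold. The background was wide, since 25.6% of all genes were lower and 22.1% higher (limma, Benjamini-Hochberg adjusted p below 0.05). All but Srsf12 among the 27 lay above the median gene level of the R1E set, and among the genes above it 43.1% of genes were lower and 30.2% higher. The median log2 change of the 27 genes was -0.33, against -0.02 over all genes, and 5 genes were lower and 1 higher by more than 1.5-fold. In bulk RNA, fewer cells of a type and less RNA per cell cannot be told apart.

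**Figure D1:**
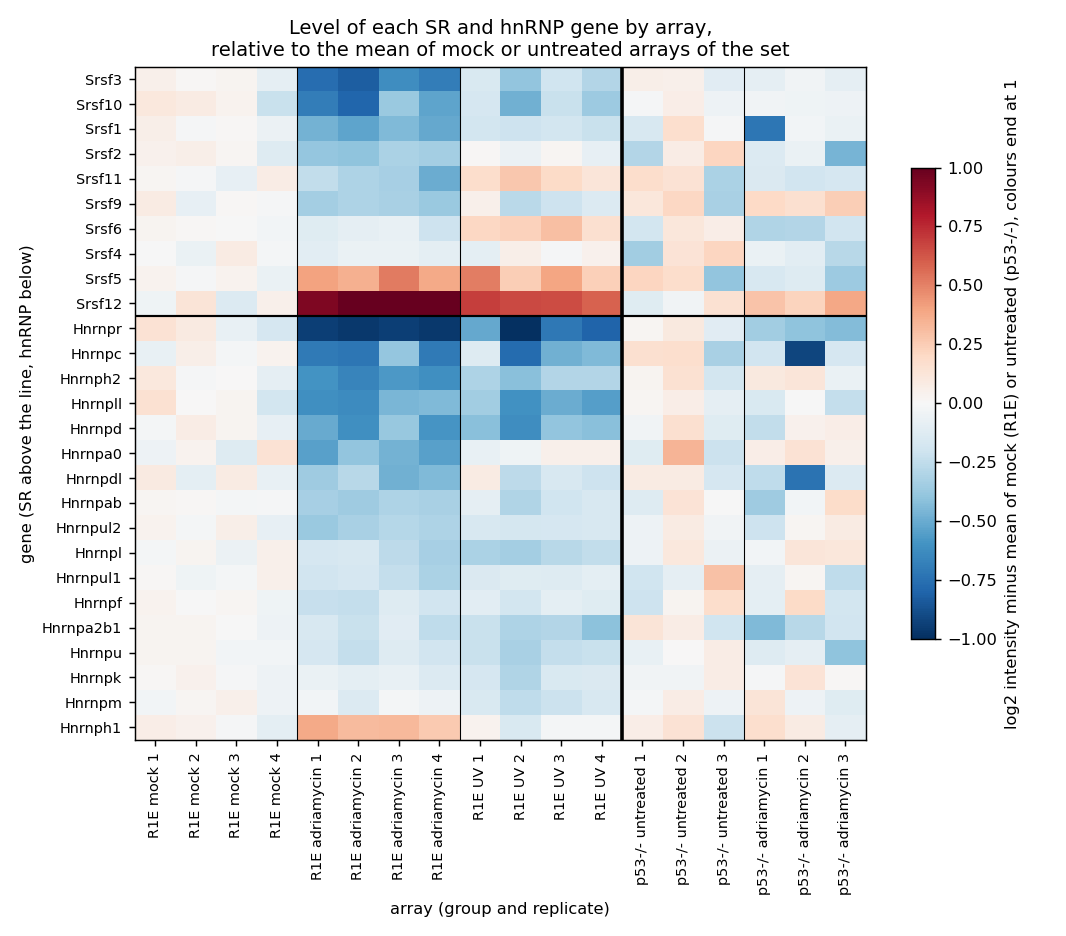
Level of each of the 27 genes on each of the 18 arrays, as the log2 intensity minus the mean of the mock arrays (R1E) or of the untreated arrays (p53-/-), with SR genes above the line and hnRNP genes below. Blue columns mark most genes on the 4 adriamycin arrays of R1E, red cells mark Srsf12, Srsf5 and Hnrnph1, and the colours end at 1 in either direction.

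Centring every array on its median shifted all changes after adriamycin by -0.13 on the log2 scale, and 48.4% of all genes were then lower and 16.5% higher. Of the 27 genes, 24 were then lower and 3 higher. For UV the centred shares of all genes were 28.5% lower and 15.6% higher, and for adriamycin against UV 32.2% and 17.1%. Quantile normalization gave 18 lower and 3 higher among the 27 genes after adriamycin, against 28.1% and 21% of all genes.

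Among SR genes, 7 of 10 fell after adriamycin and 2 rose. Srsf3, the smallest SR protein and an adaptor for messenger RNA export, read 11.80, 11.76, 11.77 and 11.66 on the mock arrays and 10.98, 10.92, 11.13 and 11.06 after adriamycin, in log2 intensity. It read 11.59, 11.35, 11.55 and 11.46 after UV, and in p53-/- cells 12.18, 12.17 and 12.01 untreated and 12.03, 12.09 and 12.03 after adriamycin. The adriamycin arrays of R1E lay below every mock and UV array, while the p53-/- groups overlapped. The change in R1E was -0.73 ± 0.06 (SE, n = 4 and 4, limma, adjusted p = 4.10e-08). The other probes of Srsf3 gave -0.68 and -1.07.

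The remaining falls among SR genes were in Srsf10 (-0.60 ± 0.09), a splicing repressor when dephosphorylated, Srsf1 (-0.49 ± 0.05), the founding SR protein that acts in constitutive and regulated splicing, and Srsf2 (-0.36 ± 0.05), a speckle protein that activates exons. Srsf11 changed by -0.34 ± 0.06, Srsf9 by -0.34 ± 0.06 and Srsf6 by -0.12 ± 0.05. The Srsf6 call was marginal (limma, adjusted p = 0.0456). It ended with quantile normalization (log2 change -0.03), with a replicate block and without most single arrays, as given with the dependence on processing. Srsf4, a large SR protein with a long arginine and serine tail, had a log2 change of -0.08 and was not called.

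Srsf12, a close relative of Srsf10 that can repress splice site use, read 4.72, 4.89, 4.62 and 4.81 on mock arrays. It read 5.69, 5.89, 5.85 and 5.80 after adriamycin and 5.46, 5.42, 5.42 and 5.36 after UV. The p53-/- cells read 4.35, 4.44 and 4.63 untreated and 4.76, 4.70 and 4.86 after adriamycin. None of these groups overlapped with its control group, and the adriamycin arrays of R1E were the highest. The mock readings lay below the array medians of R1E, which ran from 5.48 to 5.61, so this was a dim probe, and detection calls were not used here. The change after adriamycin was 1.05 ± 0.06 (limma, adjusted p = 4.05e-10).

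Srsf5, an SR protein that activates alternative exons, was the other riser among SR genes. Its mock arrays read 10.24, 10.19, 10.24 and 10.13, its adriamycin arrays 10.61, 10.56, 10.72 and 10.58, and its UV arrays 10.71, 10.45, 10.60 and 10.44. On p53-/- arrays the readings were 10.70, 10.66 and 10.09 untreated and 10.32, 10.35 and 10.13 after adriamycin. Every treated R1E array lay above every mock array, and untreated replicate 3 of the p53-/- cells stood apart from the other two. The change after adriamycin in R1E was 0.42 ± 0.06 (limma, adjusted p = 3.49e-05), and a second probe gave 0.46.

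Among hnRNP genes, 14 of 17 fell after adriamycin and 1 rose. Hnrnpr, a relative of Syncrip with roles in splicing and in RNA transport in axons, read 8.78, 8.73, 8.56 and 8.47 on mock arrays, 7.70, 7.67, 7.69 and 7.67 after adriamycin and 8.12, 7.62, 7.92 and 7.83 after UV. Readings of the p53-/- cells were 8.51, 8.59 and 8.38 untreated and 8.15, 8.09 and 8.06 after adriamycin. Treated and control arrays did not overlap in any of these comparisons, and UV replicate 2 was lower than any adriamycin array. The change after adriamycin in R1E was -0.95 ± 0.09 (limma, adjusted p = 1.22e-07).

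Hnrnpc, which binds uridine tracts in nascent RNA, read 9.76, 9.89, 9.82 and 9.87 on mock arrays, 9.13, 9.11, 9.45 and 9.13 after adriamycin and 9.70, 9.06, 9.36 and 9.39 after UV. The p53-/- readings were 10.74, 10.75 and 10.25 untreated and 10.39, 9.66 and 10.41 after adriamycin. All treated R1E arrays were below the mock arrays. Adriamycin replicate 3 stood above its group, and the UV arrays were spread widely, from 9.06 on replicate 2 to 9.70 on replicate 1. The fall after adriamycin was -0.63 ± 0.11 in log2 units (limma, adjusted p = 8.36e-05).

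The H and F proteins bind runs of guanines, and their genes did not move together. Hnrnph2 read 9.59, 9.47, 9.49 and 9.39 on mock arrays, 8.88, 8.82, 8.91 and 8.87 after adriamycin and 9.18, 9.07, 9.19 and 9.19 after UV. In p53-/- cells it read 9.63, 9.75 and 9.41 untreated and 9.69, 9.72 and 9.53 after adriamycin. The 3 groups of R1E did not overlap and stood in the order mock, UV, adriamycin, whereas the p53-/- groups overlapped. The change after adriamycin in R1E was -0.61 ± 0.05 (limma, adjusted p = 4.05e-08), and a second probe gave -0.71.

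Hnrnph1, its close paralog, went the other way. It read 10.90, 10.87, 10.81 and 10.73 on mock arrays, 11.21, 11.15, 11.15 and 11.09 after adriamycin and 10.87, 10.68, 10.81 and 10.81 after UV. The p53-/- arrays read 10.59, 10.66 and 10.31 untreated and 10.69, 10.60 and 10.43 after adriamycin. The adriamycin arrays of R1E stood above all others of that line, with a change of 0.32 ± 0.05 (limma, adjusted p = 9.87e-05). Hnrnpf changed by -0.20 ± 0.05, and its other 3 probes gave -0.21 each.

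Hnrnpd, which binds AU-rich elements and affects messenger RNA decay, read 11.09, 11.19, 11.14 and 11.03 on mock arrays, 10.61, 10.50, 10.74 and 10.52 after adriamycin and 10.69, 10.49, 10.72 and 10.70 after UV. Untreated p53-/- cells read 10.59, 10.79 and 10.50 and adriamycin-treated ones 10.38, 10.66 and 10.69. Both R1E treatments lay below mock and overlapped each other. The change after adriamycin was -0.52 ± 0.07. Its relatives Hnrnpdl and Hnrnpab changed by -0.39 ± 0.07 and -0.33 ± 0.05.

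Hnrnpll, which binds CA-rich RNA and controls splicing of the CD45 transcript in lymphocytes, read 7.78, 7.64, 7.67 and 7.45 on mock arrays, 7.02, 7.0, 7.18 and 7.19 after adriamycin and 7.29, 7.03, 7.14 and 7.08 after UV. The p53-/- readings were 7.98, 8.03 and 7.87 untreated and 7.81, 7.95 and 7.72 after adriamycin. Again both treatments of R1E lay below mock and overlapped each other, with a change of -0.53 ± 0.08 after adriamycin. Its paralog Hnrnpl changed by -0.23 ± 0.05.

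Hnrnpa0, an A/B-type hnRNP, read 9.12, 9.21, 9.05 and 9.32 on mock arrays, 8.63, 8.78, 8.70 and 8.63 after adriamycin and 9.10, 9.13, 9.23 and 9.23 after UV. For p53-/- cells the values were 8.83, 9.29 and 8.74 untreated and 9.02, 9.10 and 9.01 after adriamycin. The adriamycin arrays of R1E stood below all mock and UV arrays, which overlapped. The change after adriamycin was -0.49 ± 0.06 (limma, adjusted p = 4.37e-06), and Hnrnpa2b1, a core protein of hnRNP particles, changed by -0.19 ± 0.05.

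Hnrnpul2 changed by -0.32 ± 0.05, Hnrnpul1 by -0.23 ± 0.05 and Hnrnpu, a nuclear matrix protein that binds chromatin and RNA, by -0.18 ± 0.05. With quantile normalization the calls of Hnrnpu and Hnrnpa2b1 ended (limma, adjusted p = 0.0611 and 0.156). Hnrnpk, which binds cytidine-rich RNA through KH domains, had a log2 change of -0.09 and was not called. Hnrnpm read 11.06, 11.11, 11.14 and 11.04 on mock arrays and 11.06, 10.95, 11.07 and 11.04 after adriamycin, with a change of -0.06 that was not called. Among the 27 genes, treated and mock arrays did not overlap for 25, against 45.6% of all genes, a share not matched for level.

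**Figure D2:**
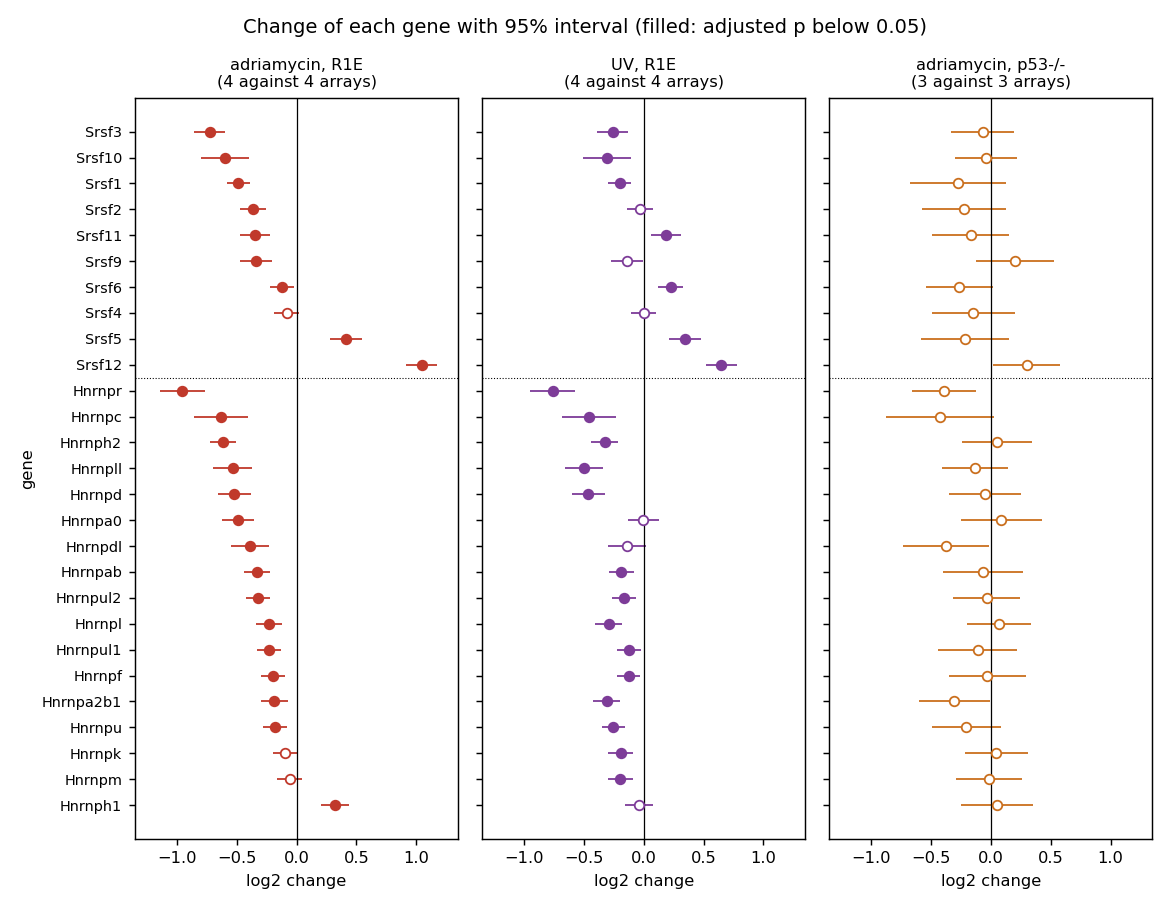
Log2 change of each gene, with its 95% interval, after adriamycin in R1E, after UV in R1E and after adriamycin in p53-/- cells, with filled points for genes called at an adjusted p below 0.05. Most points of both R1E panels are filled and left of 0, Srsf12 and Srsf5 are right of 0 in both, and no point of the p53-/- panel is filled.

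The comparison of UV with mock cells asked the same of another kind of DNA damage, and shares its mock arrays with the first. After UV 17 of the 27 genes were lower and 4 higher, where 21.2% of all genes were lower and 22.6% higher (limma, adjusted p below 0.05). Among the genes above the median level these shares were 37.5% and 30.9%. The families differed in their counts: 14 of 17 hnRNP genes fell and none rose, while 3 of 10 SR genes fell and 4 rose. The difference between the families was not tested. Median log2 changes were -0.20 for hnRNP genes and -0.02 for SR genes, against 0.03 over all genes. UV and mock arrays did not overlap for 20 of the 27 genes, against 40.7% of all genes, again not matched for level.

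Hnrnpr again had the largest fall, -0.76 ± 0.09 (limma, adjusted p = 2.59e-06). Hnrnpll changed by -0.50 ± 0.08, Hnrnpd by -0.46 ± 0.07 and Hnrnpc by -0.46 ± 0.11. Hnrnph2 followed at -0.33 ± 0.05, Hnrnpa2b1 at -0.31 ± 0.05, Hnrnpl at -0.29 ± 0.05 and Hnrnpu at -0.25 ± 0.05. Smaller falls were called for Hnrnpm (-0.20), Hnrnpk (-0.19), Hnrnpab (-0.19), Hnrnpul2 (-0.16), Hnrnpf (-0.13) and Hnrnpul1 (-0.12). Hnrnpm read 10.94, 10.84, 10.87 and 10.92 after UV, each below every mock array.

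Some of these small falls depended on the processing. With quantile normalization the calls of Hnrnpm (limma, adjusted p = 0.0742), Hnrnpab (0.118), Hnrnpul2 (0.150), Hnrnpf (0.151) and Hnrnpul1 (0.544) ended. The Hnrnpf call (adjusted p = 0.0366) also ended with a replicate block (0.0529), with only the 2 groups fitted (0.0503) and without mock replicate 1, 2 or 3 or UV replicate 2 or 4 (0.0566 to 0.0990). The Hnrnpul1 call (adjusted p = 0.0481) also ended with a replicate block (0.0830), with only the 2 groups fitted (0.0527) and without any 1 mock or UV array or adriamycin replicate 1 or 3 (0.0504 to 0.112).

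Of the SR genes, Srsf10 (-0.31 ± 0.09), Srsf3 (-0.26 ± 0.06) and Srsf1 (-0.20 ± 0.05) fell after UV. The Srsf10 call ended without UV replicate 2 (limma, adjusted p = 0.0554). Srsf12 rose by 0.65 ± 0.06, Srsf5 by 0.35 ± 0.06, Srsf6 by 0.23 ± 0.05 and Srsf11 by 0.19 ± 0.06. Hnrnpdl (-0.14), Srsf9 (-0.14), Hnrnph1 (-0.04), Srsf2 (-0.03), Hnrnpa0 (0.00) and Srsf4 (0.00) were not called.

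Srsf6 and Srsf11 were called in opposite directions after the 2 treatments. Srsf6, an SR protein studied in skin and in neuronal splicing, read 9.99, 9.98, 9.96 and 9.94 on mock arrays, 9.85, 9.88, 9.89 and 9.76 after adriamycin and 10.18, 10.20, 10.27 and 10.13 after UV. Srsf11, an SR-like protein that contacts the U2AF splice site factor, read 9.06, 9.03, 8.96 and 9.11 on mock arrays, 8.79, 8.73, 8.71 and 8.55 after adriamycin and 9.21, 9.31, 9.23 and 9.16 after UV. The mock arrays of both genes lay between the treatments with no overlap. The Srsf11 call for UV (limma, adjusted p = 0.0155) ended with centred arrays (log2 change 0.11, adjusted p = 0.140) and without mock replicate 3 or UV replicate 2 (adjusted p = 0.0559 and 0.0517).

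In p53-/- cells Srsf6 read 9.41, 9.72 and 9.67 untreated and 9.30, 9.31 and 9.41 after adriamycin. There Srsf11 read 8.89, 8.86 and 8.40 untreated and 8.57, 8.52 and 8.55 after adriamycin. Neither change was called, at -0.26 ± 0.13 for Srsf6 and -0.17 ± 0.15 for Srsf11.

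**Figure D3:**
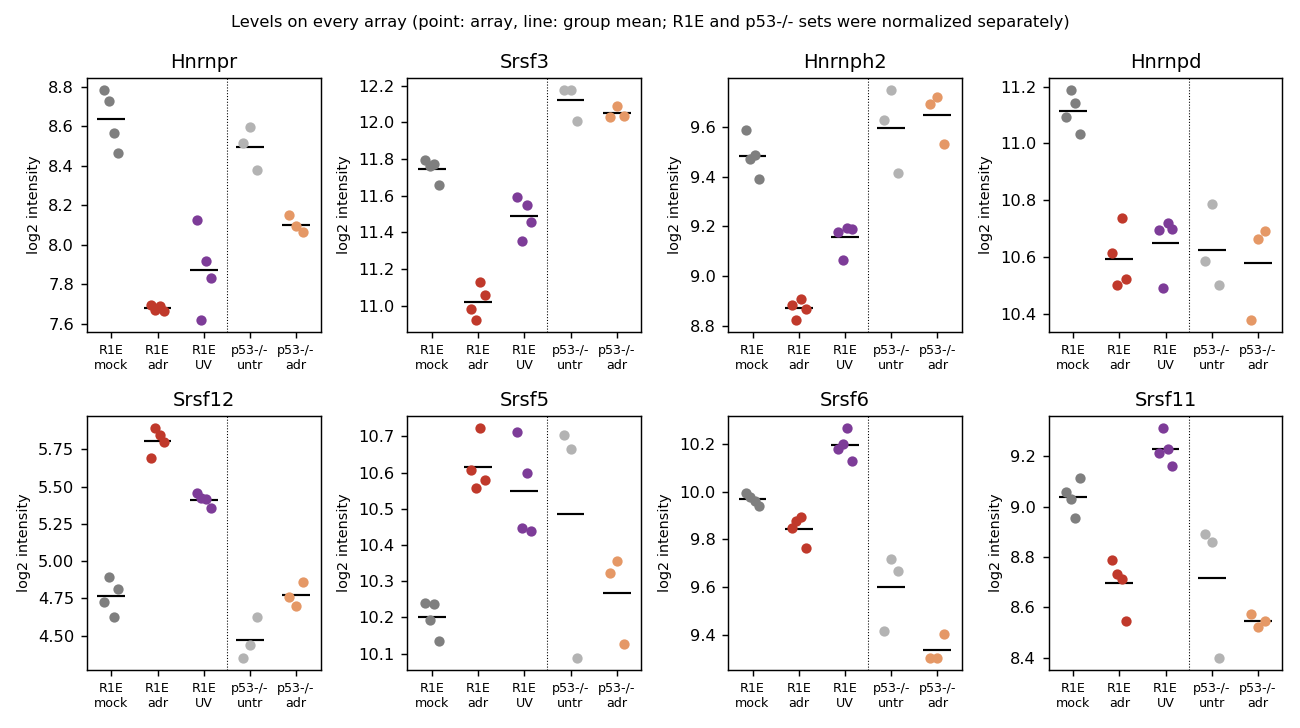
Log2 intensity of 8 genes on every array, with a point for each array and a line for each group mean, for R1E mock, adriamycin (adr) and UV and for p53-/- untreated (untr) and adriamycin cells. Hnrnpr and Hnrnph2 are lower after both R1E treatments, Srsf12 and Srsf5 higher, and Srsf6 and Srsf11 lower after adriamycin and higher after UV; vertical axes do not start at 0, and the line sets were normalized separately.

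Adriamycin and UV arrays of R1E were then compared directly, without the mock arrays in the contrast. Of the 27 genes 12 were lower after adriamycin than after UV and 3 higher, where 22.2% of all genes were lower and 19.8% higher. Among the genes above the median level 35% were lower and 31.6% higher. SR genes made up 7 of the 12 lower genes. These were Srsf11 (-0.53 ± 0.06), Srsf3 (-0.47 ± 0.06), Srsf6 (-0.35 ± 0.05), Srsf2 (-0.33 ± 0.05), Srsf10 (-0.29 ± 0.09), Srsf1 (-0.29 ± 0.05) and Srsf9 (-0.20 ± 0.06). For Srsf11 the adjusted p was 1.79e-06 and for Srsf6 1.97e-05 (limma). Among hnRNP genes Hnrnpa0 (-0.49 ± 0.06), Hnrnph2 (-0.29 ± 0.05), Hnrnpdl (-0.25 ± 0.07), Hnrnpul2 (-0.16 ± 0.05) and Hnrnpab (-0.14 ± 0.05) were lower after adriamycin. The Srsf10 call ended without adriamycin replicate 1 or 2 or UV replicate 1 or 3 (limma, adjusted p from 0.0637 to 0.0742), and the Srsf9 call without UV replicate 1 (0.0630). The Hnrnpab call ended with only the 2 groups fitted (0.0551) and without adriamycin replicate 1 or 2 or UV replicate 1 or 4 (0.0555 to 0.0842).

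Srsf12 (0.40 ± 0.06), Hnrnph1 (0.36 ± 0.05) and Hnrnpm (0.14 ± 0.05) were higher after adriamycin than after UV. The Hnrnpm call ended with centred arrays (limma, adjusted p = 0.136), with only the 2 groups fitted (0.0511) and without adriamycin replicate 1, 3 or 4 or UV replicate 2 or 3 (0.0579 to 0.0800). The other 12 genes were not called, among them those with large falls after each treatment. Hnrnpr differed by -0.19 with a 95% interval from -0.38 to -0.004, Hnrnpc by -0.18 (-0.40 to 0.05), Hnrnpd by -0.06 (-0.20 to 0.08) and Hnrnpll by -0.03 (-0.19 to 0.13). The rest were Hnrnpul1 (-0.11), Srsf4 (-0.08), Hnrnpf (-0.07), Hnrnpl (0.06), Srsf5 (0.07), Hnrnpu (0.07), Hnrnpk (0.10) and Hnrnpa2b1 (0.12).

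Gene span, from first to last annotated base, ran from 2678 to 39226 bases for the 27 genes, with a median of 13723 against 17738 over all genes. Across the 27 genes, which share the same arrays, the Spearman rho of span with change was -0.30 for UV, 0.02 for adriamycin in R1E and 0.36 for adriamycin against UV. Over all genes with a span these were -0.29, 0.04 and 0.40. They are given as a description, and genes are not independent replicates.

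Adriamycin in p53-/- cells was compared with untreated cells of the same set. None of the 27 genes was called in either direction (limma, 0 of 27), where 0.0803% of all genes were lower and 0.015% higher. At an unadjusted p below 0.05, 3 of the genes were lower (Hnrnpr, Hnrnpdl and Hnrnpa2b1) and 1 was higher (Srsf12), against 3.93% and 7.71% of all genes. Estimates were below 0 for 20 of the 27 genes, or 74.1%, against 37.4% of all genes, a share not matched for level. With dim genes left out, the median log2 change was -0.09 for 26 of the genes and 0.03 over all genes kept. The p53-/- set was noisier, with a median SE of a change of 0.14 for the 27 genes against 0.05 in R1E.

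The largest estimates in p53-/- cells were -0.43 ± 0.21 for Hnrnpc, -0.39 ± 0.12 for Hnrnpr, -0.37 ± 0.16 for Hnrnpdl, -0.30 ± 0.14 for Hnrnpa2b1 and -0.27 ± 0.18 for Srsf1. Upward, Srsf12 had 0.30 ± 0.13 and Srsf9 0.20 ± 0.15. Hnrnpr had an adjusted p of 0.250 and Srsf12 of 0.404 (limma). Srsf2 had -0.22, Srsf5 -0.22, Hnrnpu -0.21, Srsf4 -0.15, Hnrnpll -0.13, Hnrnpul1 -0.11, Srsf3 -0.07, Hnrnpab -0.06, Hnrnpd -0.05, Srsf10 -0.04, Hnrnpul2 -0.04, Hnrnpf -0.03 and Hnrnpm -0.01. Hnrnpk, Hnrnph1 and Hnrnph2 each had 0.05, Hnrnpl 0.07 and Hnrnpa0 0.09. Hnrnpm read 10.43, 10.53 and 10.41 untreated and 10.59, 10.41 and 10.34 after adriamycin. Groups did not overlap for 4 genes (Hnrnpr, Srsf6, Hnrnpu and Srsf12), against 17.5% of all genes, not matched for level.

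The size of the adriamycin change in R1E was set against that in p53-/- cells, each with the spread of its own set. What sets the lines apart (genotype, line, array set, software) cannot be told apart here. The difference was called for 9 of the 27 genes, with 7 more negative and 2 more positive in R1E, where 11.4% and 10.4% of all genes were called. With dim genes left out, 8 of 26 genes were more negative and 1 more positive, against 19.2% and 13% of all genes kept. Srsf12 (0.75 ± 0.14) and Srsf5 (0.63 ± 0.18) had the more positive changes, with adjusted p = 0.000833 and 0.0190 (limma effects, Benjamini-Hochberg). In Srsf5 the change was 0.42 in R1E and -0.22 in p53-/- cells, and its call ended without any 1 of p53-/- untreated replicates 1 and 2 or adriamycin replicates 1 and 3 (adjusted p from 0.0515 to 0.0837).

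Hnrnph2 differed by -0.66 ± 0.14 and Srsf3 by -0.66 ± 0.14, with adjusted p = 0.00293 and 0.00154. Hnrnpa0 (-0.58 ± 0.17), Hnrnpr (-0.56 ± 0.15), Srsf10 (-0.56 ± 0.15), Srsf9 (-0.54 ± 0.16) and Hnrnpd (-0.47 ± 0.15) were also called. The call of Srsf10 rested on the probe used: a second, dimmer probe changed by -0.73 in R1E and by -0.58 ± 0.18 in p53-/- cells, and with the mean of its probes the difference had an adjusted p of 0.123. The calls of Srsf9, Hnrnpa0 and Hnrnpd each ended without some single p53-/- arrays. For Hnrnpd these were untreated replicates 1 and 3 and adriamycin replicates 2 and 3 (limma effects, adjusted p from 0.0560 to 0.118). Its call also ended with quantile normalization (log2 difference -0.39, adjusted p = 0.0558). Without p53-/- adriamycin replicate 2 only 4 genes were more negative in R1E, against 7.97% of all genes.

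For 18 genes the difference was not called. Hnrnpll had -0.40 (95% interval -0.71 to -0.10, adjusted p = 0.0560), Hnrnpl -0.30, Hnrnpul2 -0.29, Hnrnpab -0.27 and Srsf1 -0.22. Hnrnpc had -0.20, Srsf11 -0.18, Hnrnpf -0.17, Hnrnpk -0.14, Srsf2 -0.14, Hnrnpul1 -0.12, Hnrnpm -0.04 and Hnrnpdl -0.02. Hnrnpu had 0.02, Srsf4 0.07, Hnrnpa2b1 0.12, Srsf6 0.14 and Hnrnph1 0.27.

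**Figure D4:**
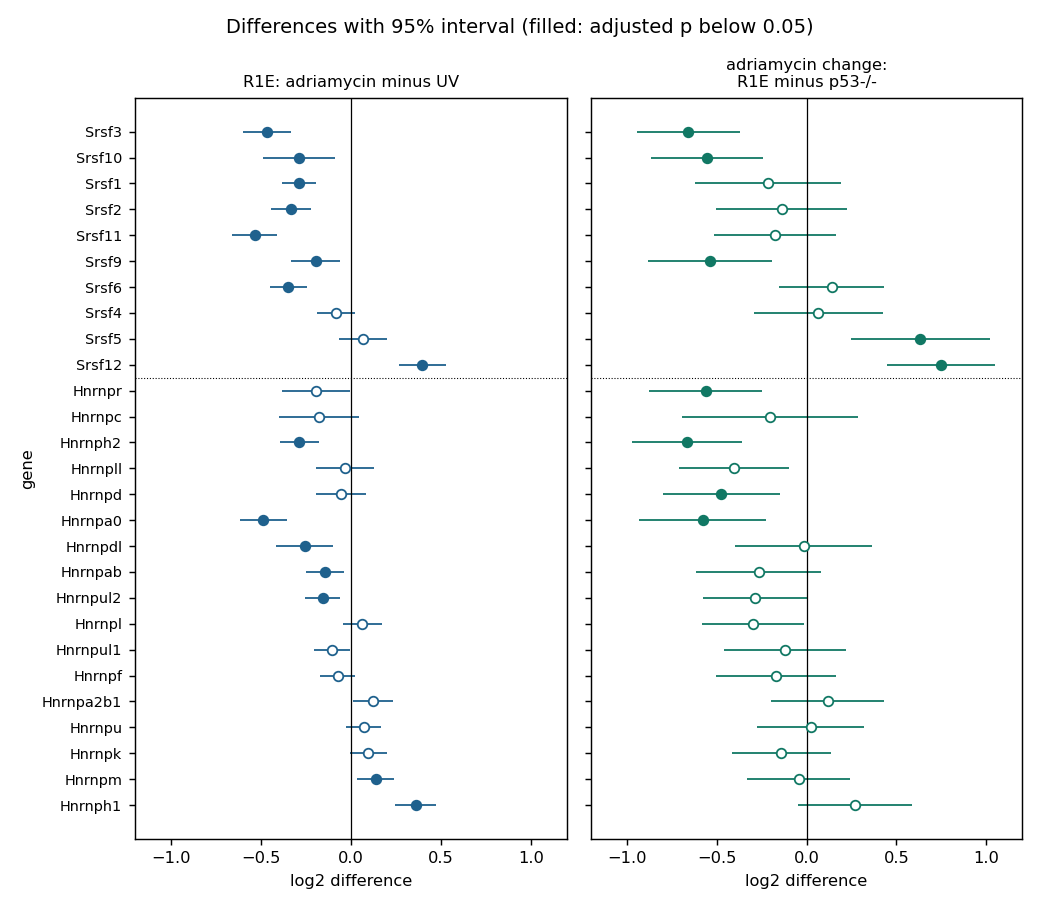
Difference of each gene, with its 95% interval, between adriamycin and UV in R1E (left) and between the adriamycin change in R1E and that in p53-/- cells (right), on the log2 scale, with filled points for adjusted p below 0.05. Of the 10 SR genes 7 are filled left of 0 in the left panel, and 9 of the 27 genes are filled in the right panel.

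The labels were checked on marker genes. The p53 targets Mdm2, Ccng1 and Fas changed by 1.89, 0.88 and 3.18 after adriamycin in R1E and were not called in p53-/- cells, where the highest of the 3 changes was 0.21. Trp53 itself was not analysed here. The mean level of 10 pluripotent cell markers ran from 11.11 to 11.17 on mock arrays, 10.44 to 10.55 after adriamycin and 10.85 to 10.91 after UV. Of the 10 markers, 9 were lower after adriamycin and 7 after UV. The shares lower were 25.6% and 21.2% of all genes, and 43.1% and 37.5% of genes above the median level. In p53-/- cells the mean of these 10 markers ran from 10.01 to 10.24. The mean of 12 fibroblast markers, such as feeder cells would carry, ran from 5.09 to 5.28 in R1E and from 6.69 to 6.98 in p53-/- cells, where Col1a1 averaged 9.93 untreated and 9.64 after adriamycin. The mean of 9 trophectoderm and primitive endoderm markers ran from 5.04 to 5.50 in R1E and from 6.15 to 6.39 in p53-/- cells. The part of these markers' levels in the changes of the splicing factor genes was not tested.

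Other genes of the splicing and RNA decay pathway were counted in 6 lists, each read against the shares already given, which were 25.6% of all genes lower and 22.1% higher after adriamycin and 21.2% and 22.6% after UV. Among genes above the median level they were 43.1% and 30.2% after adriamycin and 37.5% and 30.9% after UV. For adriamycin directly against UV they were 22.2% lower and 19.8% higher over all genes, and 35% and 31.6% above the median level. SR-related proteins, which carry arginine and serine tails without the domain order of SR proteins, had 27 of 32 measured genes lower and 1 higher after adriamycin in R1E. Tra2a, an exon activator, changed by -0.61, U2af1, the subunit that reads the 3′ splice site, by -0.58, and Rbm39 by -0.58, while Sfswap rose by 0.43. After UV 10 of these 32 were lower and 4 higher, led by Rsrc1 at -1.33. In the direct comparison 25 were lower after adriamycin than after UV and 4 higher. Their median log2 changes were -0.36 after adriamycin and -0.11 after UV.

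RNA-binding proteins related to hnRNPs but named otherwise had 20 of 34 lower and 2 higher after adriamycin, and 24 lower and 2 higher after UV. Pcbp4 changed by -1.41, Igf2bp3 by -0.83 and Igf2bp1 by -0.81 after adriamycin, and Ptbp2, a repressor of neuronal exons, by -0.77 after UV. Ptbp1, its paralog, rose by 0.18 after adriamycin. Cirbp, a cold-inducible RNA-binding protein, rose by 0.47 after UV. In the direct comparison 10 of the 34 were lower after adriamycin than after UV and 11 higher. These were 29.4% and 32.4%, against 35% and 31.6% of genes above the median level.

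Of 52 core spliceosome subunits, 26 were lower and 8 higher after adriamycin, and 23 lower and 10 higher after UV. Prpf3, a protein of the U4/U6 particle, changed by -0.73 and Cdc5l by -0.59 after adriamycin, while Slu7 rose by 0.51 and Aqr by 0.50. After UV Cwc27 changed by -1.03 and Sf3b1, the U2 subunit at the branch site, by -0.45, while Sf3b5 rose by 0.54. The lower shares, 50% and 44.2%, lie near those of all genes above the median level. In the direct comparison 19 were lower after adriamycin and 14 higher. These were 36.5% and 26.9%, against 35% and 31.6% of genes above the median level.

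The list of kinases, phosphatases and nuclear importers had 8 of 16 genes lower and 2 higher after adriamycin and 10 lower and 3 higher after UV. The largest fall of the list after adriamycin was in the phosphatase gene Ppp1cc (-0.57). Srpk2, a kinase of the SR tail, changed by -0.47 after adriamycin and had the largest fall after UV, -0.93. The importin genes did not move together. Tnpo2 rose by 0.68 after each treatment, while Tnpo1 changed by -0.20 after adriamycin and -0.24 after UV. Tnpo3 was not called after adriamycin (-0.05) and was lower after UV (-0.26). In the direct comparison 4 were lower after adriamycin and 4 higher. Each was 25% of the list, against 35% lower and 31.6% higher among genes above the median level.

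Tissue and cell type splicing regulators had the widest range of the 6 lists after adriamycin, with 15 of 34 lower and 10 higher. Esrp1, which drives epithelial splicing, changed by -2.0 after adriamycin and -1.47 after UV. Celf5 rose by 2.08 and 1.47, Rbm38, a p53 target that binds RNA, by 1.25 and 1.27, and Mbnl2 rose by 0.96 after adriamycin. After UV 15 were lower and 7 higher. In the direct comparison 8 were lower after adriamycin and 14 higher, or 23.5% and 41.2%, against 22.2% and 19.8% of all genes. Among genes above the median level those shares were 35% and 31.6%. Of 16 genes of nonsense-mediated decay and the exon junction complex, 8 were lower and 3 higher after adriamycin and 7 lower and 2 higher after UV, with Upf2 at 0.77 and the kinase gene Smg1 at -0.49 after adriamycin. These lower shares, 50% and 43.8%, also lie near those of genes above the median level. In the direct comparison 8 of these 16 were lower after adriamycin and 3 higher, or 50% and 18.75%. No gene of the 6 lists was called in p53-/- cells, where only 0.0803% of all genes were lower and 0.015% higher.

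**Figure D5:**
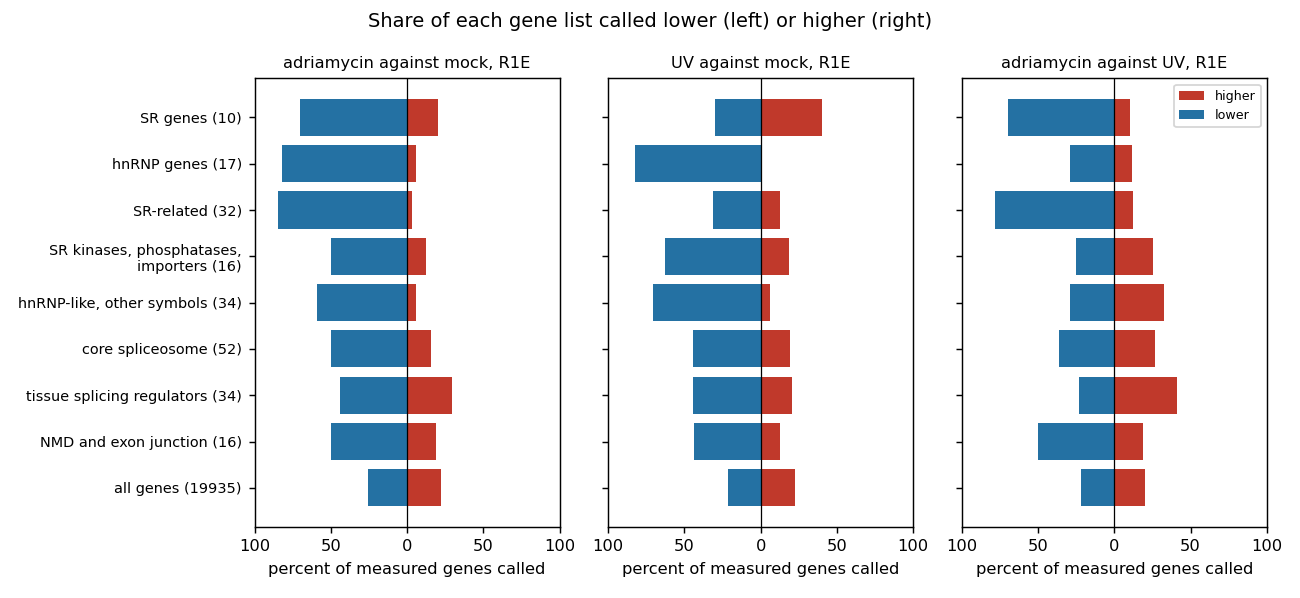
Percent of the measured genes of each list called lower (blue, to the left) and higher (red, to the right) at an adjusted p below 0.05 in the 3 R1E comparisons, with the number of measured genes in brackets and all 19935 genes at the bottom. Blue bars of SR-related proteins reach 84.4% after adriamycin and 31.2% after UV, and hnRNP genes stand at 82.4% in both.

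Probes of SR and hnRNP genes can share sequence with close paralogs and processed pseudogenes, and cross-hybridisation was not tested. Of the 27 genes 6 had more than 1 probe of their symbol alone, and apart from the Srsf10 and Srsf3 probes already given their changes after adriamycin in R1E differed by less than 0.1 on the log2 scale.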

How the data were processed

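Total RNA was labelled with a whole-transcript kit and hybridised to 1 array per sample, per the labels' protocols. As deposited, the table holds 1 log2 intensity for each probe on each array. The R1E values came from Affymetrix Expression Console 1.1 and the p53-/- values from RMA in Partek 6.4, per the submitters' processing notes. Which algorithm Expression Console ran is not stated there. Levels were therefore tested within a set only.

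Of 28853 probes, 28815 had values on all 18 arrays. The platform annotation named 1 gene for 21780 of them, several for 1605 and none for 5430. The probe with the highest mean was kept per gene, leaving 19935 genes. Array medians ran from 5.30 to 5.61, and the number of arrays limits precision.

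Comparisons used lmFit and eBayes in limma 3.58.1 (R 4.3.3), with Benjamini-Hochberg adjustment over all 19935 genes and a threshold of 0.05. R1E had 1 fit of 12 arrays and p53-/- cells 1 fit of 6. The difference of the adriamycin changes used the moderated SE of each fit with Welch-Satterthwaite degrees of freedom. Errors are SE unless stated. No filter on dim probes was set. Code was tested on simulated data.

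The 27 genes, the gene lists and the tests were chosen with earlier results of these data known. Every SR and hnRNP gene is named. Values on all arrays are given for the 4 largest called rises and falls of each comparison and for genes called in opposite directions. Up to 3 called rises and falls were named per other list. Alternatives covered centring, quantile normalization, dim genes, the choice of probe, the eBayes prior, a replicate block, the arrays in a fit and each array left out. Promoter windows are from RefSeq, build GRCm38.p6, the first listed per gene. No genome build of the array is named in the labels used.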

Additional observations from a re-analysis of the deposited data

Results flagged for a closer look

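Single arrays stood apart from the other 3 of their group in 4 of 81 checks of a gene in a group, and chance alone marks about 1 in 20. Hnrnpc on R1E adriamycin replicate 3 read 9.45, against 9.11 to 9.13 on the others. On R1E UV replicate 2, Hnrnpd read 10.49 against 10.69 to 10.72, Hnrnph2 9.07 against 9.18 to 9.19, and Hnrnpk 11.95 against 12.08 to 12.10. That array was the lowest of its group for 17 of the 27 genes, with a median deviation from the group mean of -0.07, against 0.00 over all genes. Other arrays were at an end of their group about as often: R1E mock replicate 4 was the lowest for 16 genes, R1E adriamycin replicate 3 the highest for 16 and R1E UV replicate 1 the highest for 15. In p53-/- cells, untreated replicate 3 was the lowest for 16 genes (median deviation -0.06) and untreated replicate 2 the highest for 15 (0.10). Without R1E UV replicate 2, 14 genes were lower and 3 higher after UV, in place of 17 and 4. The shares of all genes were then 20.1% lower and 20.5% higher.

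The adriamycin change differed between R1E and p53-/- cells for 9 genes by a test of the difference itself. In R1E it was more negative for Hnrnph2 (-0.66), Srsf3 (-0.66), Hnrnpa0 (-0.58), Hnrnpr (-0.56), Srsf10 (-0.56), Srsf9 (-0.54) and Hnrnpd (-0.47). It was more positive for Srsf5 (0.63) and Srsf12 (0.75). Over all genes, 11.4% were called more negative and 10.4% more positive. Genotype, line, array set and software differ together between the lines and cannot be told apart.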

How the results depend on the processing

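No change of a called gene reversed under any alternative run. Of the genes called after adriamycin in R1E, 21 of 24 kept their call throughout, as did 14 of 21 after UV, 11 of 15 for adriamycin against UV and 4 of 9 for the difference between the lines. Quantile normalization gave 12 lower and 4 higher after UV, against 22.7% and 19.9% of all genes. Centring gave 19 and 3, against 28.5% and 15.6%. With a trend and robust prior, 5 genes were higher for adriamycin against UV in place of 3, where 19.9% of all genes were higher. For the difference between the lines, 1 gene was more positive with dim genes left out, a filter that removes Srsf12, against 13% of all genes kept. The range with single arrays left out was 1 to 2 more positive and 4 to 8 more negative. Over all genes it was 8.26% to 12.6% more positive and 7.75% to 12.4% more negative. The count of 4 came without p53-/- adriamycin replicate 2, and the count of 1 without p53-/- untreated replicate 1 or 2 or adriamycin replicate 1 or 3. The cause of these shifts was not tested. A shared spread over 18 arrays gave 10 more negative and 2 more positive, against 16.2% and 12.9% of all genes. After adriamycin in R1E the Srsf6 call ended with quantile normalization (limma, adjusted p = 0.594), with a replicate block (0.0530) and without each of 8 single arrays (0.0505 to 0.144). In R1E, arrays with the same replicate number did not deviate together: their deviations correlated from -0.14 to 0.16, over 0.1 in 2 of 12 pairs. Only 1 of 12 arrays correlated best with its own number. Larger correlations joined arrays of different number, such as 0.39 for mock 1 with adriamycin 3 and -0.42 for mock 4 with adriamycin 3. In p53-/- cells same-number correlations ran from -0.10 to 0.19, over 0.1 in 1 of 3 pairs. There 4 of 6 arrays correlated best with their own number, and 6 arrays are too few to decide on a pairing. With a replicate block 20 genes were lower and 3 higher after adriamycin in R1E, against 25.3% and 21.9% of all genes. After UV 15 were lower and 4 higher, against 21.1% and 22.4%. For adriamycin against UV 12 were lower and 3 higher, against 21.8% and 19.6%. For the difference 7 were more negative and 2 more positive, against 2297 and 2095 of all 19935 genes. In p53-/- cells 0 were called, where 0.0251% of all genes were lower and 0% higher. Signal over background was not used as a limit here, and Srsf12 lay below the median gene level.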
